A study of Homo sapiens with 16 samples.

Results

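The genes described here are 10 receptors and shaping proteins of the endoplasmic reticulum (ER), taken by name from the 58051 genes of a count table: RETREG1, RETREG2, RETREG3, RTN3, RTN4, CCPG1, TEX264, ATL3, CALCOCO1 and REEP5. All 10 were found in the table and all 10 passed the filter on low counts. The RNA came from LNCaP, a line of human prostate cancer cells, and was sequenced to ask which transcripts respond when the stress factor XBP1 is inhibited in different ways. In the knockdown experiment, 4 libraries came from cells given a control siRNA (siCtrl) and 4 from cells given siRNA against XBP1 (siXBP1), 2 days after transfection. In the inhibitor experiment, 4 libraries came from cells given DMSO (Vehicle) and 4 from cells given 10 µM MKC8866 for 24 h, a small molecule that blocks the RNase of IRE1. The cells of all 16 libraries, at passage 20, had 30 nM thapsigargin for 3 h before RNA was taken, so that no group is free of ER stress. Thapsigargin blocks the pump that fills the ER with calcium.

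ER-phagy is the delivery of pieces of the ER to the lysosome by autophagy. A receptor sits in or on the ER membrane and holds it to ATG8 proteins (the LC3 and GABARAP families) on the growing autophagosome, while reticulons, REEPs and atlastins give the membrane its tubules, sheets and junctions. IRE1, when it senses unfolded protein, splices the XBP1 transcript, and the resulting factor XBP1s switches on genes for ER folding, transport and growth, a pathway on which secretory cells such as those of the prostate lean heavily.

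XBP1 itself was read first, since it checks the labels. It was at 386, 422, 366 and 359 CPM (counts relative to the TMM-normalized library size) in the siCtrl libraries and at 51.2, 54.2, 54.2 and 53.2 CPM in the siXBP1 libraries. Each knockdown library was far below each control library, and XBP1 fell by 2.85 on the log2 scale, 7.20-fold (SE 0.051, adjusted p 2.9e-20, edgeR's quasi-likelihood test with Benjamini-Hochberg adjustment, used for every adjusted p here). With MKC8866, which blocks the splicing of this transcript, XBP1 was at 583, 619, 576 and 537 CPM against 488, 539, 483 and 504 CPM with Vehicle. It was higher by 0.20 (SE 0.044, adjusted p 0.0049), although the ranges of the groups touched at their edges. Counts per gene hold spliced and unspliced XBP1 together. Between 28713607 and 34509488 fragments were counted per library (median 30743136), and the members had between 430 and 8555 counts in a library.

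To compare genes, levels were divided by exon length, and on this scale the shaping proteins stood at the top. The length merges the exons of all annotated transcripts of a gene, whether or not these cells use them. The order of genes therefore also depends on the annotation. In siCtrl cells REEP5, a shaper of tubules, was at 42.6 ± 1.26 CPM per kb (SD, n = 4), and RTN3, a reticulon whose long form is a tubule receptor, was at 41.9 ± 1.31. Their ranges overlapped, so that on this scale the data give them no order, and counts per gene pool the forms of RTN3 as they do those of RTN4. RTN4, the reticulon known as Nogo, followed at 21.9 ± 0.596 CPM per kb. ATL3, an atlastin GTPase that fuses tubules and also a tubule receptor, was at 18.1 ± 0.943 and TEX264, a receptor with a long flexible arm, at 16.5 ± 0.969, again with overlapping ranges. Below them the sheet receptor family was spread out, with RETREG2 at 11.2 ± 0.802, RETREG3 at 7.67 ± 0.539 and RETREG1 at 4.30 ± 0.196 CPM per kb. CALCOCO1, a soluble receptor that holds the ER through VAP proteins, was at 2.68 ± 0.232, and CCPG1, a receptor known to rise in ER stress, was at 1.95 ± 0.135 CPM per kb. From RETREG2 downwards no neighbours overlapped. The level of CCPG1 is a low estimate, because 3405 of its 8872 exon bases (38.4%) also belong to the read-through gene DNAAF4-CCPG1 on the same strand, and fragments that overlap 2 genes were not counted. Over exon bases shared with no other gene, a scale added after the data were seen, CCPG1 was at 3.22 ± 0.223 CPM per kb, above CALCOCO1, and REEP5 at 46.7 ± 1.38, above RTN3, neither with overlap. The order within these pairs therefore depends on the length used.

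After knockdown the order changed in its upper part on both scales. RTN3 was then alone at the top (40.8 ± 0.845 CPM per kb), above REEP5 (32.8 ± 1.65) and RTN4 (26.7 ± 0.616), with no overlap between these neighbours. ATL3, at 7.25 ± 0.213 CPM per kb, was now beneath TEX264 and RETREG2. In the inhibitor experiment REEP5 and RTN3 were level in both groups per length of the whole exons, at 41.7 and 41.6 CPM per kb with Vehicle and 39.1 and 39.1 with MKC8866. ATL3 was at 15.4 ± 0.744 CPM per kb with Vehicle, where its range overlapped that of TEX264, and at 14.7 ± 0.752 with MKC8866, where it was below TEX264 without overlap.

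**Figure D1:**
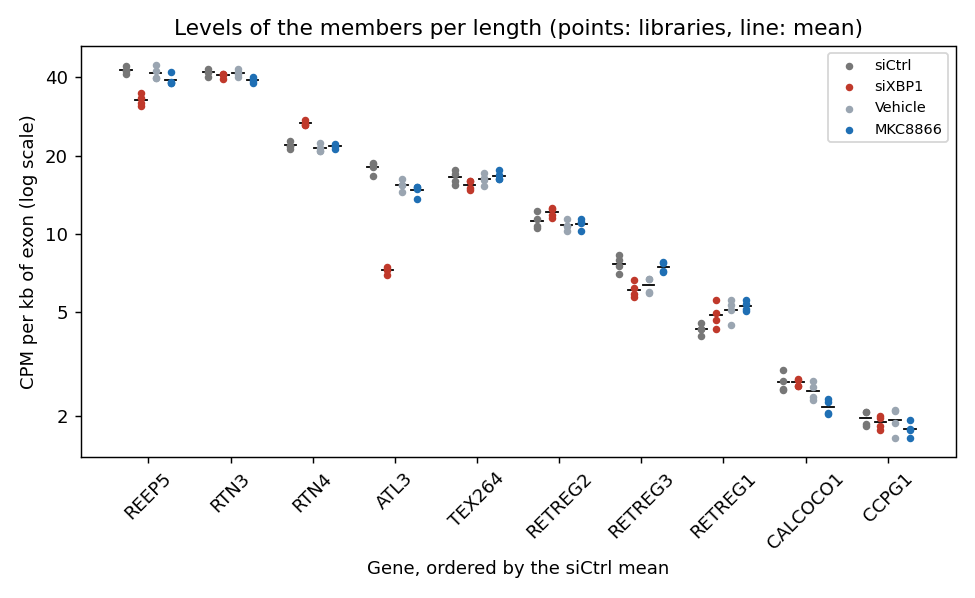
Level of each of the 10 genes in CPM per kb of exon on a log axis, with a point for each library and a colour for each of the 4 groups. ATL3 is at 18.1 CPM per kb in siCtrl and 7.25 in siXBP1, while REEP5 and RTN3 lie together at 42.6 and 41.9 in siCtrl.

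After knockdown of XBP1, ATL3, REEP5 and RETREG3 were lower and RTN4 was higher. The other 6 members did not pass the test, although RETREG1 did with DESeq2, higher. The 3 lower members are set beside 18.2% of all 21021 genes tested that were lower, and the 1 higher member beside 16.5% that were higher, so that the number of members called is no result about the list. The same 4 members, and no others, had CPM ranges that did not overlap between siCtrl and siXBP1, against 32.8% of all genes. The median log2 fold change was -0.045 over the members and 0.0050 over all genes. The largest change among the members was that of ATL3.

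ATL3 was at 127, 142, 137 and 143 CPM in the siCtrl libraries and at 55.0, 55.5, 52.9 and 56.8 CPM in the siXBP1 libraries. All 4 knockdown libraries were near each other and well below the lowest control library. ATL3 fell by 1.32 (SE 0.046, 95% confidence interval -1.41 to -1.22), which is 2.49-fold (adjusted p 9.4e-16). The gene (ENSG00000184743) lies on the minus strand of chromosome 11 at chr11:63624087-63671921 (hg38), and its neighbour RTN3 begins 9524 bases away on the plus strand. RTN3 was at 232, 244, 243 and 251 CPM in siCtrl and at 239, 237, 229 and 240 CPM in siXBP1. These ranges overlapped, and the log2 fold change of RTN3 was -0.038 (SE 0.038, adjusted p 0.49).

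REEP5 (ENSG00000129625, chr5:112876379-112922539, minus strand) was at 187, 174, 179 and 181 CPM in siCtrl and at 132, 141, 148 and 135 CPM in siXBP1. The lowest control library was above the highest knockdown library. REEP5 fell by 0.38 (SE 0.043), 1.30-fold, with an adjusted p of 3.0e-07. RETREG3 (ENSG00000141699, chr17:42579513-42610623, minus strand), a relative of the sheet receptor RETREG1, was at 36.1, 42.6, 40.7 and 38.6 CPM in siCtrl and at 31.9, 29.4, 30.3 and 34.1 CPM in siXBP1. Here too the groups did not overlap, with a smaller gap. RETREG3 fell by 0.33 (SE 0.059), 1.26-fold, with an adjusted p of 1.3e-04.

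RTN4 (ENSG00000115310, chr2:54972187-55112621, minus strand) moved the other way. It was at 142, 151, 145 and 144 CPM in siCtrl and at 174, 174, 178 and 183 CPM in siXBP1. Each knockdown library was above each control library, and RTN4 was higher by 0.28 (SE 0.039), 1.22-fold, with an adjusted p of 4.3e-06. The calls of ATL3, REEP5, RETREG3 and RTN4 were kept under every alternative setting at this threshold, the removal of each library in turn included.

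RETREG1 was the member nearest to the threshold on the other side. It was at 20.7, 19.7, 19.6 and 18.5 CPM in siCtrl and at 19.6, 21.4, 25.5 and 22.6 CPM in siXBP1, and only the lowest siXBP1 library lay within the control range. Its log2 fold change was 0.18 (SE 0.072, adjusted p 0.055). It passed the threshold under 7 of 14 alternatives, over which its adjusted p ran from 0.012 to 0.21. These were DESeq2 (0.047), its size factors (0.047), no filter on low counts (0.027), a minimum of 10 counts (0.039), and the fits without siCtrl replicate 1 (0.037), siXBP1 replicate 1 (0.012) or siXBP1 replicate 2 (0.0496). RETREG2 had 0.11 (SE 0.052, adjusted p 0.12) and passed without siCtrl replicate 2 (adjusted p 0.014, 0.014 to 0.26 over its alternatives). TEX264 ranged from 84.0 to 100.03 CPM over the 16 libraries and had a log2 fold change of -0.098 (adjusted p 0.12). For CCPG1, between 14.5 and 18.6 CPM, it was -0.052 (adjusted p 0.62). CALCOCO1, between 18.1 and 26.7 CPM, was the closest to no change, with -0.00039 (95% confidence interval -0.13 to 0.13, adjusted p 0.998).

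**Figure D2:**
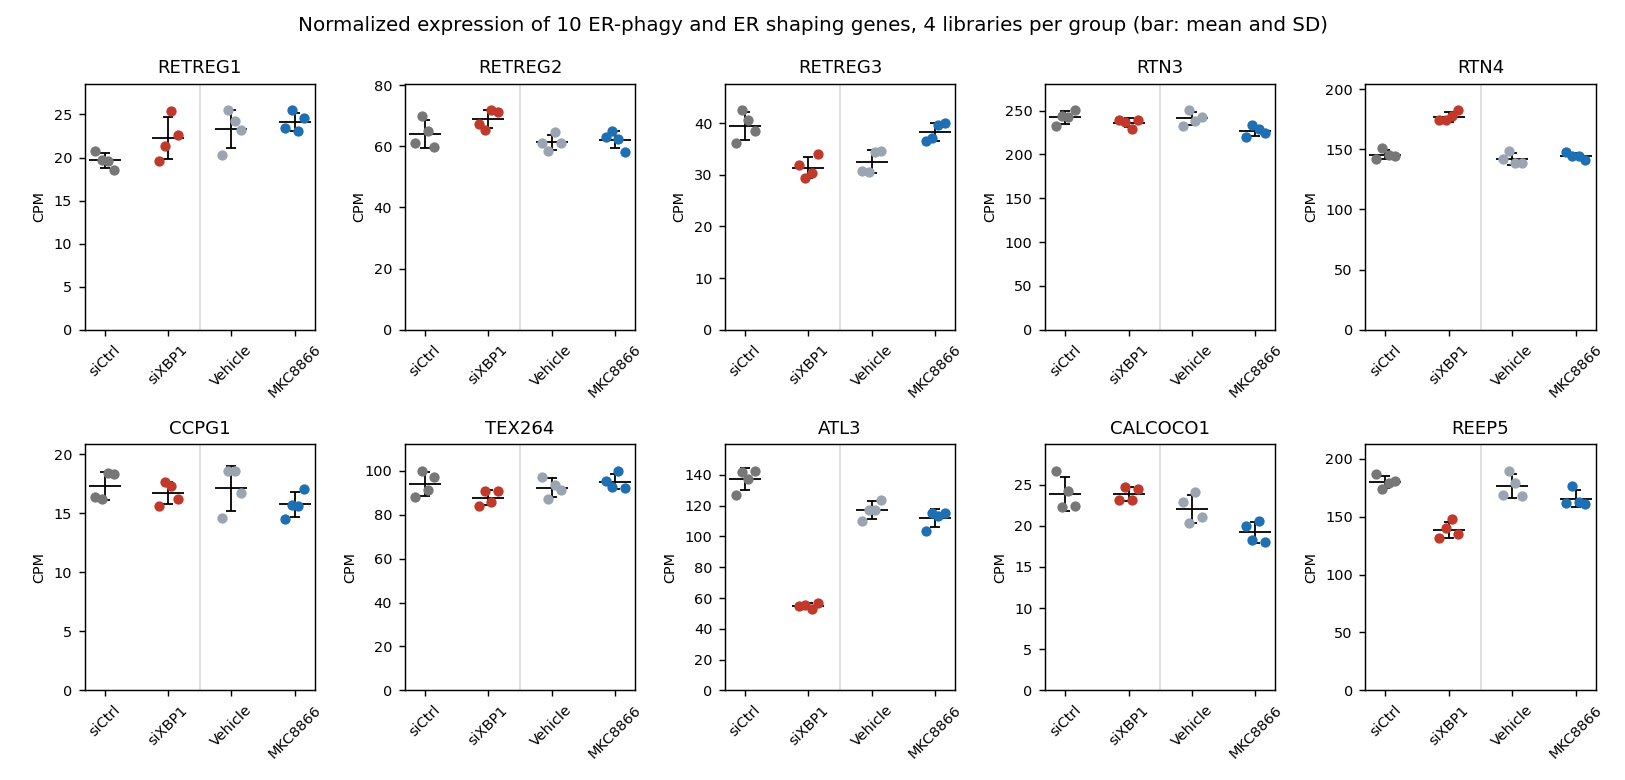
CPM of the 10 genes in each of the 16 libraries, one panel a gene, with a point for each library, a bar for the mean of each group and axes that start at 0. The siXBP1 points of ATL3 lie between 52.9 and 56.8 CPM, below all siCtrl points from 127 CPM upwards, and those of RTN4 lie above their controls.

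Some members share exon bases with another gene, mostly on the other strand. Because the counting ignored strand and left out fragments over 2 genes, fragments in such a stretch went to neither gene, so these levels are low estimates. RETREG1 shares 408 bases (8.93% of its exons) with RETREG1-AS1, RETREG2 shares 291 (5.12%) with CNPPD1, RETREG3 shares 139 (2.70%) with TUBG1 and CCPG1 shares 443 (4.99%) with PIGB. For REEP5 the shared stretch is 368 bases (8.70%), with ZRSR2P1, and for TEX264 it is 184 bases (3.23%) with RAD54L2 on the same strand.

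Promoters were matched for 9 of the 10 members in the RefSeq promoters used (GRCh38.p14), and CALCOCO1 was not matched. The 250 bases before each start were searched on both strands. The letters searched were ACGTG, the core of XBP1 binding sequences, CACGTG, which contains it, CCACG, the end of the ER stress element, and TGACGTG, which also contains ACGTG. Over all 35116 promoters of this length, 18.5% held ACGTG, 6.34% CACGTG, 33.5% CCACG and 1.68% TGACGTG. Of the 19 member promoters 5 held ACGTG, 2 held CACGTG, 9 held CCACG and 0 held TGACGTG. RETREG2, which did not pass the test, had the most ACGTG matches, 4 in the promoter listed first, which are 2 copies of CACGTG each read on both strands. The windows of the members with the largest falls after knockdown are shown, with CCACG and ACGTG on either strand in capitals. The ATL3 window, chr11:63671377-63671626 on the minus strand, holds CCACG 2 times, and the REEP5 window, chr5:112922228-112922477 on the minus strand, holds neither, and is shown without its last 62 bases, which are 5′ untranslated in another transcript of GENCODE 44 (shown: chr5:112922290-112922477).
ATL3: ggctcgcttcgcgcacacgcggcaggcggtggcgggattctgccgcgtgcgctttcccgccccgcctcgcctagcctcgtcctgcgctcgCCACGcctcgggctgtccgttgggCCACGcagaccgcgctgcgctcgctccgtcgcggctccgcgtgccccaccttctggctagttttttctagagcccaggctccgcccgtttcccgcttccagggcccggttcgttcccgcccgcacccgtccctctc
REEP5: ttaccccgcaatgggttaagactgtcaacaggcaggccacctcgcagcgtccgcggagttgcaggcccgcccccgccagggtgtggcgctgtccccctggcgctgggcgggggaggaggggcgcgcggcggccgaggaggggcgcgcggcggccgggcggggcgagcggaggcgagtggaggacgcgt
The ATL3 window lies inside an exon of another ATL3 transcript that has no coding sequence assigned, and its last 35 bases are annotated as coding in a further one. The first listed of 2 RETREG3 windows, chr17:42609428-42609677 on the minus strand, holds ACGTG and CCACG 1 time each. The other holds ACGTG 1 time and CCACG 0 times. In the first, 180 of the 250 bases lie in an exon of another RETREG3 transcript, 115 of them untranslated and 65 coding. Exons of TUBG1 cover 37 of its bases. A match is a description of the letters in these windows and does not show binding.

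MKC8866 changed fewer genes. Of 21045 genes tested, 3.11% were lower and 1.36% higher, and 9.28% had ranges that did not overlap between Vehicle and MKC8866. The 287 higher genes ran from 180 to 484 when single libraries were left out. Among the members edgeR called 0 lower and 1, RETREG3, higher (2 and 1 at an unadjusted p under 0.05, 0 and 1 with DESeq2), and RETREG3 was also the 1 member without overlap. The median log2 fold change was -0.022 over the members and 0.0027 over all genes. Same-numbered Vehicle and MKC8866 libraries moved together, and once the number was fitted as a block 7.05% of genes were lower and 6.0% higher. Of the members 3 were then lower, namely RTN3, CALCOCO1 and REEP5, and 1 was higher.

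RETREG3 was at 30.8, 30.5, 34.4 and 34.6 CPM with Vehicle and at 36.7, 37.1, 39.7 and 40.01 CPM with MKC8866. Each treated library was above each control library, the reverse of what knockdown gave. The controls differed as well, with a mean of 32.6 CPM with Vehicle and 39.5 CPM in siCtrl. The treated means were 38.4 CPM with MKC8866 and 31.4 CPM in siXBP1. RETREG3 was higher by 0.24 (SE 0.056), 1.18-fold, with an adjusted p of 0.010 (1.7e-05 with the block). The call was lost without Vehicle replicate 1 (0.21, adjusted p 0.055), without MKC8866 replicate 3 (0.22, 0.051) or without MKC8866 replicate 4 (0.21, 0.056), while the log2 fold change stayed between 0.20 and 0.27 without single libraries. Over 14 alternatives the adjusted p ran from 1.7e-05 to 0.056.

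CALCOCO1 was at 22.8, 20.3, 24.1 and 21.01 CPM with Vehicle and at 20.0, 18.2, 20.6 and 18.1 CPM with MKC8866. The groups overlapped slightly. Its log2 fold change was -0.20 (SE 0.067, adjusted p 0.11, and 0.0047 with the block, from 0.0047 to 0.33 over the alternatives). REEP5 was at 169, 190, 179 and 168 CPM with Vehicle and at 162, 177, 162 and 161 CPM with MKC8866. These ranges overlapped too, with a log2 fold change of -0.090 (SE 0.045, adjusted p 0.35, and 0.013 with the block, from 0.013 to 0.68). For RTN3, which overlapped between the groups, it was -0.087 (SE 0.038, adjusted p 0.27, and 0.0096 with the block, from 0.0096 to 0.51).

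ATL3, so clearly lower after knockdown, was at 110, 117, 117 and 124 CPM with Vehicle and at 103, 115, 113 and 115 CPM with MKC8866. The groups overlapped. Its log2 fold change was -0.065 (SE 0.046, 95% confidence interval -0.16 to 0.030, adjusted p 0.57). With the block the interval was -0.12 to -0.0089 and the adjusted p 0.13, and ATL3 was lower in each same-numbered pair. RTN4, at 142, 149, 138 and 139 CPM with Vehicle and 148, 145, 145 and 141 CPM with MKC8866, also overlapped and had a log2 fold change of 0.028 (adjusted p 0.82). The log2 fold changes of RETREG1, RETREG2, TEX264 and CCPG1 were 0.052, 0.021, 0.045 and -0.12, with adjusted p from 0.53 to 0.90.

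The test of the difference between the responses, knockdown minus MKC8866, passed for ATL3, RETREG3, RTN4 and REEP5, which is 4 of 10 members against 23.3% of 20357 genes. For ATL3 the difference on the log2 scale was -1.25 (SE 0.066, adjusted p 5.6e-15). For RETREG3, which moved in opposite directions, it was -0.56 (SE 0.083, adjusted p 5.8e-06). RTN4 had 0.26 (SE 0.052, adjusted p 4.2e-04) and REEP5 had -0.28 (SE 0.063, adjusted p 0.0012). TEX264 had -0.14 (adjusted p 0.13, and 0.034 with the block, 0.034 to 0.27 over 21 alternatives), and CALCOCO1 had 0.20 (adjusted p 0.13, 0.039 without siCtrl replicate 1, and up to 0.29). The experiments had separate controls and different times, so that the kind of inhibition and the experiment cannot be told apart. The study lists a single siRNA product against XBP1, and effects of it beyond XBP1 were not tested.

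**Figure D3:**
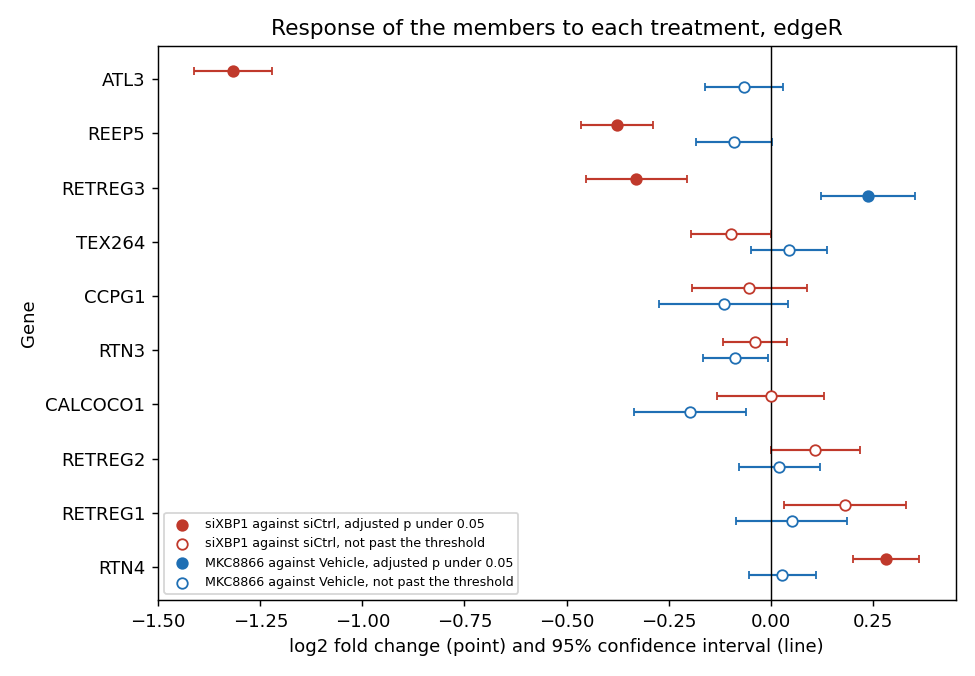
Log2 fold change of each of the 10 genes in siXBP1 against siCtrl and in MKC8866 against Vehicle, with lines for the 95% confidence interval and filled points where the adjusted p passed the threshold. ATL3 is at -1.32 after knockdown and -0.065 with MKC8866, and RETREG3 is at -0.33 and 0.24.

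Other genes of the same pathway, on 8 lists with 59 genes, were read from the same fits. After knockdown 21 of the 58 tested were lower and 17 higher, beside 18.2% and 16.5% of all genes, and 28 of these 38 calls held under every alternative. The median log2 fold change of the 58 was 0.035. With MKC8866 edgeR called 11 lower and 0 higher (14 and 4 at an unadjusted p under 0.05, 12 and 0 with DESeq2, 15 and 4 with the block), beside 3.11% and 1.36% of all genes, and all 11 calls held under every alternative. The median was then -0.012.

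The other ER-phagy receptors are 4 genes, each lower after knockdown, as were 18.2% of all genes, and the group was not tested. UBAC2, a multispanning receptor, fell by 0.83 (adjusted p 2.9e-12), CDK5RAP3, the receptor tied to UFM1, by 0.31 (0.0014), SEC62, which clears excess ER in recovery from stress, by 0.24 (4.1e-04) and TRIM13, a membrane-bound ubiquitin ligase, by 0.23 (0.0022). With MKC8866, CDK5RAP3 alone of these was lower (-0.28, adjusted p 7.0e-04). TRIM13 had 0.14 there (adjusted p 0.22, and 0.042 with the block). The difference between the responses passed for UBAC2 (-0.74, adjusted p 5.9e-11) and TRIM13 (-0.37, 5.0e-04), and not for SEC62 (-0.17, 0.074, and 0.040 with the block) or CDK5RAP3 (-0.028, 0.88).

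Among 17 other ER shaping proteins 6 were lower and 6 higher after knockdown. RRBP1, a sheet protein that binds ribosomes, and CKAP4, a spacer of the sheet lumen, fell by 1.27 (adjusted p 7.9e-16) and 0.79 (8.4e-13). KTN1, also on the list, was not called, at a mean of 293 CPM in siCtrl and 296 CPM in siXBP1. ATL2, the nearest relative of ATL3 on the list, fell by 0.72 (adjusted p 1.1e-09), and TMEM33, which binds reticulons, by 0.52 (1.7e-07). In the other direction REEP1, a relative of REEP5, was higher by 1.30 (adjusted p 1.7e-06), from a low level of at most 94 counts in a siXBP1 library. Of these 12 calls 4 were not kept under every alternative. RTN2, REEP3 and REEP4 lost theirs when 1 of 4, 5 and 4 libraries was left out (adjusted p up to 0.11, 0.083 and 0.075), and LNPK with no filter on low counts (0.054, from 0.0094 over its alternatives). With MKC8866 only CKAP4 (-0.30, adjusted p 2.8e-05) and RRBP1 (-0.27, 9.5e-04) of the 17 were lower, and edgeR called 0 higher. At an unadjusted p under 0.05, and also with DESeq2, 3 were lower and 0 higher. ARL6IP1 was the added one (-0.19, adjusted p 0.072, 0.047 with DESeq2 and 1.9e-06 with the block).

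The difference between the responses also passed for RRBP1 (-0.997, adjusted p 4.4e-12) and CKAP4 (-0.48, 1.6e-07). It passed as well for ATL2 (-0.66, adjusted p 8.3e-08) and TMEM33 (-0.58, 7.6e-07), for ZFYVE27 (-0.40, 5.4e-04) and for REEP1 (1.31, 1.5e-04), and with the block for REEP3 (-0.14, 0.025, from 0.084 without it). ATL2 and TMEM33 had -0.055 and 0.066 with MKC8866 (adjusted p 0.71 and 0.51). KTN1, at a mean of 284 CPM with Vehicle and 292 CPM with MKC8866, passed neither the test of MKC8866 nor that of the difference.

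**Figure D4:**
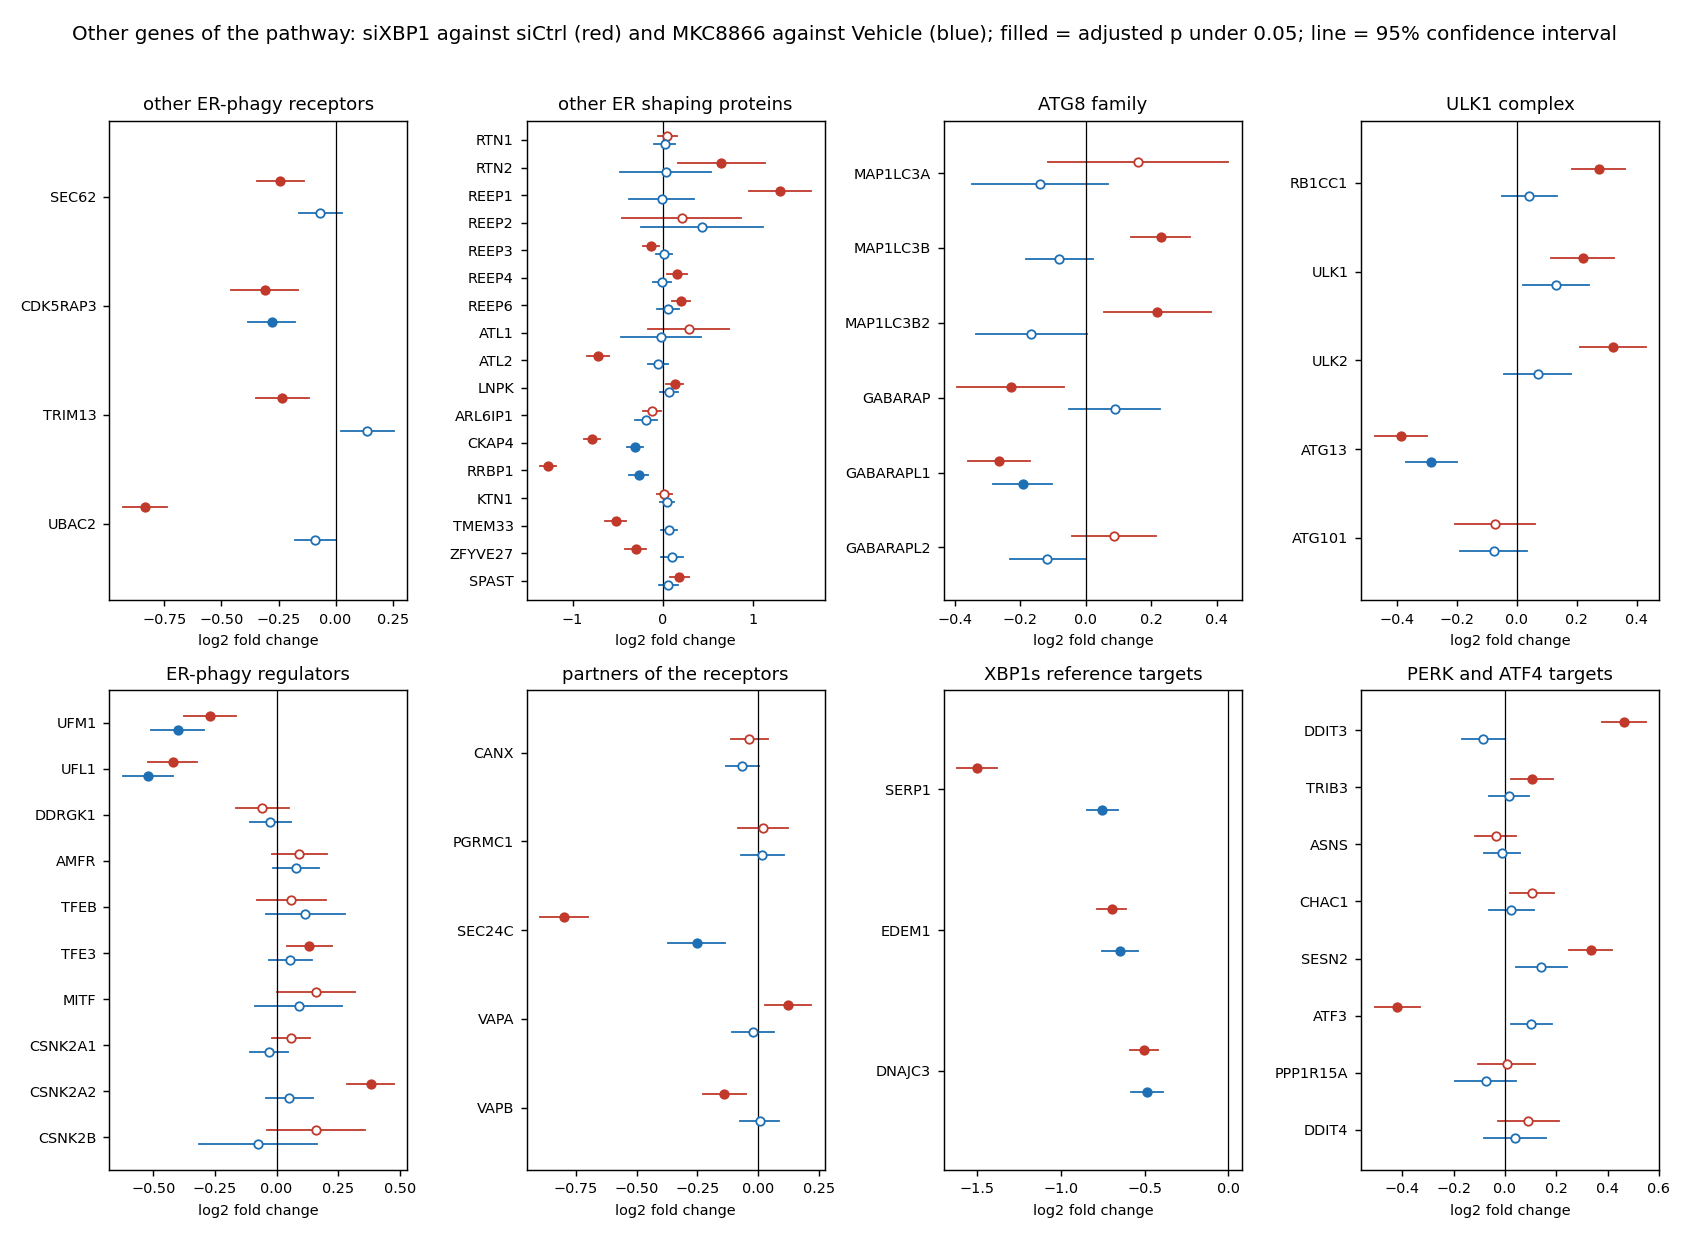
Log2 fold change of each tested gene on the 8 lists of pathway genes, with a point for each gene and treatment. RRBP1 is at -1.27 and REEP1 at 1.30 after knockdown, and with MKC8866 the lowest points are SERP1 at -0.75 and EDEM1 at -0.65.

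The ATG8 proteins that receptors bind moved both ways. Of 6 tested (MAP1LC3C was not), 2 were lower and 2 higher after knockdown: GABARAPL1 fell by 0.26 (adjusted p 8.1e-05) and MAP1LC3B was higher by 0.23 (2.2e-04). The calls of GABARAP (-0.23) and MAP1LC3B2 (0.22) were lost when 1 of 5 and 3 libraries was left out (adjusted p up to 0.14 and 0.13), and MAP1LC3B2 is a near copy of MAP1LC3B between which reads are hard to assign. With MKC8866 GABARAPL1 was lower (-0.19, adjusted p 0.0077), and GABARAPL2 also with the block (-0.12, 0.031). For GABARAPL2 the difference between the responses was 0.21 (adjusted p 0.092, and 0.048 with the block). In the ULK1 complex, which starts autophagosomes, RB1CC1, ULK1 and ULK2 were higher after knockdown, by 0.27 (adjusted p 2.1e-05), 0.22 (0.0015) and 0.32 (4.4e-05), and ATG13 fell by 0.39 (1.4e-07). ATG13 was the 1 of the 5 that passed with MKC8866 (-0.29, adjusted p 4.2e-05), and the block added ULK1 (0.13, 0.0019).

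Of 10 regulators of ER-phagy 2 were lower and 2 higher after knockdown. UFL1 and UFM1, the ligase and the modifier of UFMylation, fell by 0.42 (adjusted p 3.2e-07) and 0.27 (2.1e-04), and both were also lower with MKC8866 (-0.52 and -0.40, adjusted p 5.4e-08 and 7.9e-06). For them the difference between the responses did not pass (0.10 and 0.14, adjusted p 0.32 and 0.21). CSNK2A2, a catalytic subunit of the kinase that modifies TEX264, was higher after knockdown (0.38, adjusted p 6.1e-07), and the call of TFE3 (0.13, 0.021) was lost when 1 of 4 libraries was left out (up to 0.060). Of 5 partners of the receptors SEC24C, the COPII coat subunit, fell by 0.80 (adjusted p 9.0e-12) after knockdown and by 0.25 (0.0064) with MKC8866. The VAP proteins that anchor CALCOCO1 had 0.12 for VAPA and -0.14 for VAPB after knockdown (adjusted p 0.037 and 0.014), calls lost when 1 of 6 and 4 libraries was left out (up to 0.11 and 0.082). The difference for VAPB was -0.14 (adjusted p 0.065, 0.040 with DESeq2 and 0.030 with the block). CANX, the chaperone that works with RETREG1, had -0.066 with MKC8866 (adjusted p 0.36, and 0.024 with the block).

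The XBP1s reference targets were lower in both experiments. SERP1, EDEM1 and DNAJC3 were all lower after knockdown, by 1.5 (adjusted p 4.1e-15), 0.70 (9.9e-12) and 0.50 (1.3e-09) on the log2 scale, and all 3 were lower with MKC8866, by 0.75 (2.1e-11), 0.65 (5.0e-09) and 0.49 (7.5e-08). The study measured these genes by qPCR to check the loss of XBP1s, and here they serve as the same check. EDEM1 and DNAJC3 did not pass the test of the difference (-0.046 and -0.012, adjusted p 0.70 and 0.92), and SERP1 did (-0.75, 1.2e-08). The fall of ATL3 after knockdown, 1.32, lies between those of SERP1 and EDEM1, whereas with MKC8866 ATL3 did not pass the test. Of 8 targets of PERK and ATF4, another arm of the stress response, 3 were higher after knockdown, DDIT3 (0.46, adjusted p 6.8e-09), SESN2 (0.34, 6.9e-07) and TRIB3 (0.10, 0.045, and up to 0.12 without either of 2 libraries), and ATF3 fell by 0.42 (5.1e-08). CHAC1 had 0.10 (adjusted p 0.053, and 0.034 with DESeq2) and passed under 7 of 14 alternatives (adjusted p from 0.016 to 0.12). With MKC8866 edgeR called 0 of the 8 (1 lower and 2 higher at an unadjusted p under 0.05, 0 with DESeq2), and with the block SESN2 (0.14, adjusted p 6.3e-06) and ATF3 (0.10, 4.1e-04) were higher and DDIT3 lower (-0.085, 0.016).

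By a rule set for the members with the largest change in each experiment, the genes of nearest profile were sought among 11645 genes with a mean of at least 5 CPM, by the root mean square difference of centred log2 CPM over the 16 libraries. For ATL3 these were RIT1 (0.072), ARPP19 (0.076) and AP3M1 (0.076). Their log2 fold changes after knockdown were -1.38, -1.30 and -1.20, and with MKC8866 0.0040, 0.079 and -0.040 (adjusted p 0.98, 0.38 and 0.73). For RETREG3 they included CHST3 (0.061) and SLC35F6 (0.063), which ranked 2 and 3, and the gene ranked 1 is not reported here. SLC35F6 had -0.27 after knockdown (adjusted p 6.3e-04) and 0.20 with MKC8866 (0.0093), and CHST3 had -0.35 (1.7e-05) and 0.20 (0.056).

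Markers of the cell types were read beside these results. All 7 luminal prostate markers read were expressed, with FOLH1 most abundant, and their sum was 3184, 3198, 3254 and 3299 CPM in siCtrl and 2614, 2706, 2747 and 2694 CPM in siXBP1. After knockdown 4 of the 7 were lower, KLK3 (-0.86), KLK2 (-0.78), TMPRSS2 (-0.89) and KRT18 (-0.35), with adjusted p from 4.6e-14 to 2.0e-06. This count stands beside 18.2% of all genes tested that were lower. The sum was 3381, 3219, 3391 and 3306 CPM with Vehicle and 3678, 3514, 3661 and 3566 CPM with MKC8866, where KLK3 was higher (0.46, adjusted p 2.8e-08) and KRT18 lower (-0.22, 0.0015). With the block FOLH1 (0.065) and HOXB13 (0.089) were also higher (adjusted p 0.023 and 0.011). In whole cultures fewer cells of a type and less RNA per cell cannot be told apart, and the part of these markers in the results for the members was not tested.

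Most markers of other cell types were at or near 0. Over all 16 libraries together COL1A2 had 2 counts, DCN 8 and FAP 15 among the fibroblast markers, PTPRC 2 and CD3E 4 among the leukocyte markers, PECAM1 9 and CDH5 5 among the endothelial markers and KRT5 20 among the basal ones. The 5 fibroblast markers summed to 35.6, 31.7, 32.1 and 27.1 CPM in siCtrl and 38.3, 37.1, 35.7 and 38.6 CPM in siXBP1, and to 37.3, 29.8, 39.7 and 34.8 CPM with Vehicle and 33.5, 28.7, 31.7 and 27.9 CPM with MKC8866. COL1A1 gave most of it, and COL3A1 was higher after knockdown (1.10, adjusted p 1.3e-06), 1 of the 2 tested. With the block COL1A1 was lower with MKC8866 (-0.24, adjusted p 1.6e-04).

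The 3 endothelial markers summed to between 7.49 and 8.81 CPM in the knockdown experiment, nearly all of it VWF, and to between 7.42 and 10.5 CPM in the inhibitor experiment. The 3 leukocyte markers, led by CD68, stayed at or below 0.688 CPM and the 3 basal markers, led by KRT14, at or below 1.46 CPM in every library. Only 1 of the 3 endothelial, 1 of the 3 leukocyte and 2 of the 3 basal markers passed the filter and were tested in each experiment. Of those tested edgeR called 0 in either experiment, as did DESeq2, and 0 had an unadjusted p under 0.05. The pair of neuroendocrine markers, nearly all SYP, summed to 3.51, 3.84, 3.03 and 3.22 CPM in siCtrl, 3.04, 3.05, 2.64 and 3.10 CPM in siXBP1, 3.83, 4.25, 3.67 and 3.62 CPM with Vehicle and 2.46, 2.57, 2.42 and 2.95 CPM with MKC8866. SYP was lower with MKC8866 (-0.54, adjusted p 0.0060), and its part in the results was not tested.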

How the data were processed

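RNA-seq was deposited for 16 libraries of thapsigargin-treated LNCaP cells, 4 in each of 4 groups. The values are counts of fragments per gene as the authors deposited them, not normalized. Per the file headers, the submitters' notes and the methods, paired-end reads were aligned to hg38 with STAR 2.5.2a and counted with featureCounts 1.5.0-p3 on Ensembl annotation 85, ignoring strand although the kit was stranded, and leaving out multimapping fragments and those over 2 genes. Fragments per library ran from 28713607 to 34509488. The biological coefficient of variation between libraries was 5.40% for knockdown and 4.97% for the inhibitor, and the lowest count of a member in a library was 430.

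The test was edgeR 4.0.16 under R 4.3.3 with TMM factors (quasi-likelihood F test, two-sided), a model per experiment, on genes where every group compared had a library above 5 counts. A gene was called when its p, adjusted by Benjamini-Hochberg over all genes tested, was under 0.05. The difference of responses was a contrast over all 16 libraries on 20357 genes. The code was tested on simulated data. Figures and summaries used Python 3.11.15 with numpy 2.4.6, pandas 2.3.3, scipy 1.17.1 and matplotlib 3.10.9. Exon length came from the count table, gene names from its annotation, and promoters from RefSeq (GRCh38.p14).

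The study calls each library an independent sample, but neither it nor the labels say whether these were separate cultures, so p-values measure only the spread between these libraries. No libraries of a group were duplicates, since their counts differed by more than sampling noise (chi-square per degree of freedom 2.39 to 19.3 over 24 pairs). Labels number the libraries 1 to 4 in each group. Deviations from the group means correlated within each same-numbered pair of the inhibitor experiment (0.213, 0.379, 0.102 and 0.225 over 15041 genes with a mean of at least 1 CPM), each above 0.1, so the blocked fit stands beside results it changes. This depends on the genes used: the lowest was 0.0587 with a minimum of 0.1 CPM and 0.217 with 5 CPM. The pair numbered 3 was not each other's best match, and the pairing was judged after the calls of both fits had been seen, so the blocked values carry less weight.

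Members and lists were chosen with earlier results of these data known. Genes named are the members, XBP1, the list and marker genes, the 3 genes nearest in profile to the member with the largest change in each experiment, and genes that overlap a member, some of which are not reported here. Alternatives were DESeq2 1.42.0, its size factors in edgeR, no filter, a minimum of 10 counts throughout, the replicate block, 1 fit of all 16 libraries, a threshold of 0.01, and fits without each single library. Member levels over exon bases shared with no other gene were added after the data were seen.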

Additional observations from a re-analysis of the deposited data

Results flagged for a closer look

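In 68 groups of 4 values, 5 held a library far from the other 3, and chance alone gives about 1 in 20. With MKC8866, ATL3 was at 103 CPM in replicate 1 against 113 to 115 in the others, and REEP5 was at 177 CPM in replicate 2 against 161 to 162. The leukocyte markers summed to 0.0678 CPM in siXBP1 replicate 3 (0.321 to 0.345 in the others), the endothelial markers to 8.69 CPM in siCtrl replicate 2 (8.13 to 8.18), and the neuroendocrine markers to 2.64 CPM in siXBP1 replicate 3 (3.04 to 3.10).

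The responses to knockdown and to MKC8866 differed, by the edgeR contrast of the responses, for the genes below, given as knockdown minus MKC8866 on the log2 scale. For XBP1, the target of the siRNA, the difference was -3.05. Among the members it was -1.25 for ATL3, -0.56 for RETREG3, -0.28 for REEP5 and 0.26 for RTN4. The other receptors UBAC2 and TRIM13 had -0.74 and -0.37.

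Among the shaping proteins RRBP1 had -0.997, ATL2 -0.66, TMEM33 -0.58, CKAP4 -0.48, ZFYVE27 -0.40 and REEP1 1.31. In the ATG8 family MAP1LC3B2 had 0.39, MAP1LC3B 0.31 and GABARAP -0.31, the last lost under 11 of 21 alternatives (adjusted p 0.048, up to 0.15). For the kinase complex that starts autophagy the values were 0.25 for ULK2 and 0.23 for RB1CC1. CSNK2A2 had 0.33, SEC24C -0.54 and SERP1 -0.75. Of the PERK and ATF4 targets DDIT3 had 0.55, SESN2 0.20 and ATF3 -0.52, and that of SESN2 was lost when 1 of 6 libraries was left out (adjusted p 0.030, up to 0.078).

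Markers with such a difference were KLK3 (-1.32), TMPRSS2 (-0.95), KLK2 (-0.79), COL3A1 (1.07) and COL1A1 (0.40). The genes nearest in profile to ATL3 had -1.38 (RIT1), -1.37 (ARPP19) and -1.16 (AP3M1), and among those near RETREG3 the values were -0.55 (CHST3) and -0.47 (SLC35F6). These were picked for likeness to a member over the same libraries, so their differences are no separate evidence.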

How the results depend on the processing

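After knockdown the 4 member calls kept their direction and their side of the threshold under every alternative. With MKC8866 the number of members called was 1, and 0 at an adjusted p under 0.01, 4 with the replicate block and 0 to 1 when single libraries were left out (0 without Vehicle replicate 1, MKC8866 replicate 3 or MKC8866 replicate 4). Over all genes 941 became 595 at the stricter threshold and 2746 with the block, other pathway genes went from 11 to 19 with the block, and the 4735 genes that differed between the responses became 3133 at the stricter threshold. Apart from the calls given in the report, the block changed no other call of a member or pathway gene in the inhibitor experiment or the difference. The cause of the changes with the block was not tested. CALCOCO1 after knockdown, at -0.00039, changed sign without being called: 0.0050 with DESeq2, 0.0051 with its size factors, 0.0071 with no filter, 0.011 with at least 10 counts, 0.0022 with the block and -0.022 to 0.063 without single libraries. With MKC8866 RETREG1 ran from -0.011 to 0.093 and RETREG2 from -0.0052 to 0.047 without single libraries. In the knockdown experiment same-numbered libraries shared only a number (correlations 0.0438, 0.00104, 0.0456 and 0.0685, no library best matched by its own number), and the replicate block gave 7323 genes in place of 7311 and the same count of 4 members, adding ARL6IP1 (adjusted p 0.034) to the pathway genes. For the members, XBP1 and the list and marker genes called in the first fit or under any alternative (with MKC8866 also UBAC2, ATL2 and TMEM33), 2131 of 2268 alternative values kept direction and side of the threshold, 58 lost and 67 gained a call, and 12 changed sign. Other genes of the lists were called in no fit of a comparison, and their signs were not counted. Left out singly, MKC8866 replicate 2 moved the 941 genes most, to 1317, and the 287 higher ones ran from 180 without MKC8866 replicate 1 to 484 without MKC8866 replicate 2. Over unshared exon bases, an alternative chosen after seeing the data, 14 of 40 member levels moved by more than 1 SD.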
